A study of Mus musculus with 6 samples.

Results

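Matriptase, its 2 Kunitz-type inhibitors and 7 regulators of the epithelial state were followed in cultured mouse ovarian surface epithelial tumour cells. The 10 genes were taken by name (St14, Spint1, Spint2, Esrp1, Esrp2, Grhl2, Elf3, Ehf, Ovol1 and Rab25) out of 18194 genes that a probe set of the array named alone, and they were measured by 19 probe sets. Where a gene had several probe sets, the one brightest on average (log2) stood for it. The cells came from tumours and were freed with trypsin, grown on plates and harvested unpassaged. In the homozygous group both p53 alleles carried R172H, in the heterozygous group R172H stood beside a wild-type allele, and in the wild-type group p53 was not mutated. All cells are labelled P/K on a mixed strain background, an abbreviation that the labels do not spell out. The homozygous animals were 4 weeks old, the heterozygous ones 9 and 12 weeks, and the wild-type ones 9 weeks. Age and homozygosity therefore cannot be told apart. Each group held 2 arrays, and nothing in the labels says how many animals or tumours gave the cells of an array.

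Matriptase, the product of St14, is a serine protease anchored in the plasma membrane of epithelial cells. Spint1 and Spint2 encode the membrane-bound inhibitors HAI-1 and HAI-2, which hold matriptase and related proteases such as prostasin in check. Esrp1 and Esrp2 are RNA-binding proteins that direct splicing towards the epithelial isoforms of transcripts such as Fgfr2, Cd44, Ctnnd1 and Enah. Grhl2, a grainyhead factor, Elf3 and Ehf, ETS factors of epithelia, and Ovol1, a zinc finger repressor, are transcription factors that maintain epithelial gene expression. Rab25 is an epithelial small GTPase of the Rab11 family that recycles membrane proteins to the cell surface. The ovarian surface epithelium is a mesothelium-like layer that carries both epithelial and mesenchymal traits.

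The values were linear array signals, with array medians of 41.1 to 60.6. The highest value of the bacterial Trpn control probe sets, 24.5, was taken as background, and between 31.6% and 39.7% of all probe sets lay under it in each array. The homozygous arrays differed most from each other, with a mean variance within the pair of 0.877 on the log2 scale against 0.154 in the heterozygous and 0.178 in the wild-type pair. In homozygous array 2 the 5' 18S rRNA probe set read 6696, against 16873 to 22559 in the other 5 arrays, and the 3' minus 5' actin log2 difference was 0.59 and 0.39 in homozygous and 0.66 to 0.96 in the other arrays. Of 16 markers of the labelled surface epithelium, Aldh1a2, a retinaldehyde dehydrogenase, was the single one under background in any array. It had signals of 1.1 and 1979 in homozygous, 19538 and 17988 in heterozygous, and 17461 and 18974 in wild-type arrays. The log2 estimate against wild-type cells was negative for 15 of the 16, with a median of -2.34. Upk3b, a uroplakin of mesothelium, had signals of 6198 and 18766 in homozygous, 25169 and 27977 in heterozygous and 27255 and 30940 in wild-type arrays. Gpm6a had 2007 and 10979 in homozygous, 19192 and 14811 in heterozygous, and 17256 and 22648 in wild-type arrays. Wt1, a mesothelial transcription factor, had 5949 and 8457 in homozygous, 14529 and 13269 in heterozygous, and 15008 and 14759 in wild-type arrays.

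Of the 10 genes, 4 had signals at or above background in every array, namely Spint1, Spint2, Esrp2 and Elf3. The same 4 passed the filter for testing, a geometric mean signal of at least 60.2 over the 6 arrays. St14, Esrp1, Grhl2, Ehf, Ovol1 and Rab25 did not pass it and are given as values. Since the mean runs over all groups, a gene low in homozygous arrays can pass through the others. Spint1, with a homozygous geometric mean of 52.9, did so. For a gene outside the fit, an exact permutation test of 2 against 2 arrays cannot give a p under 0.333.

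**Figure D1:**
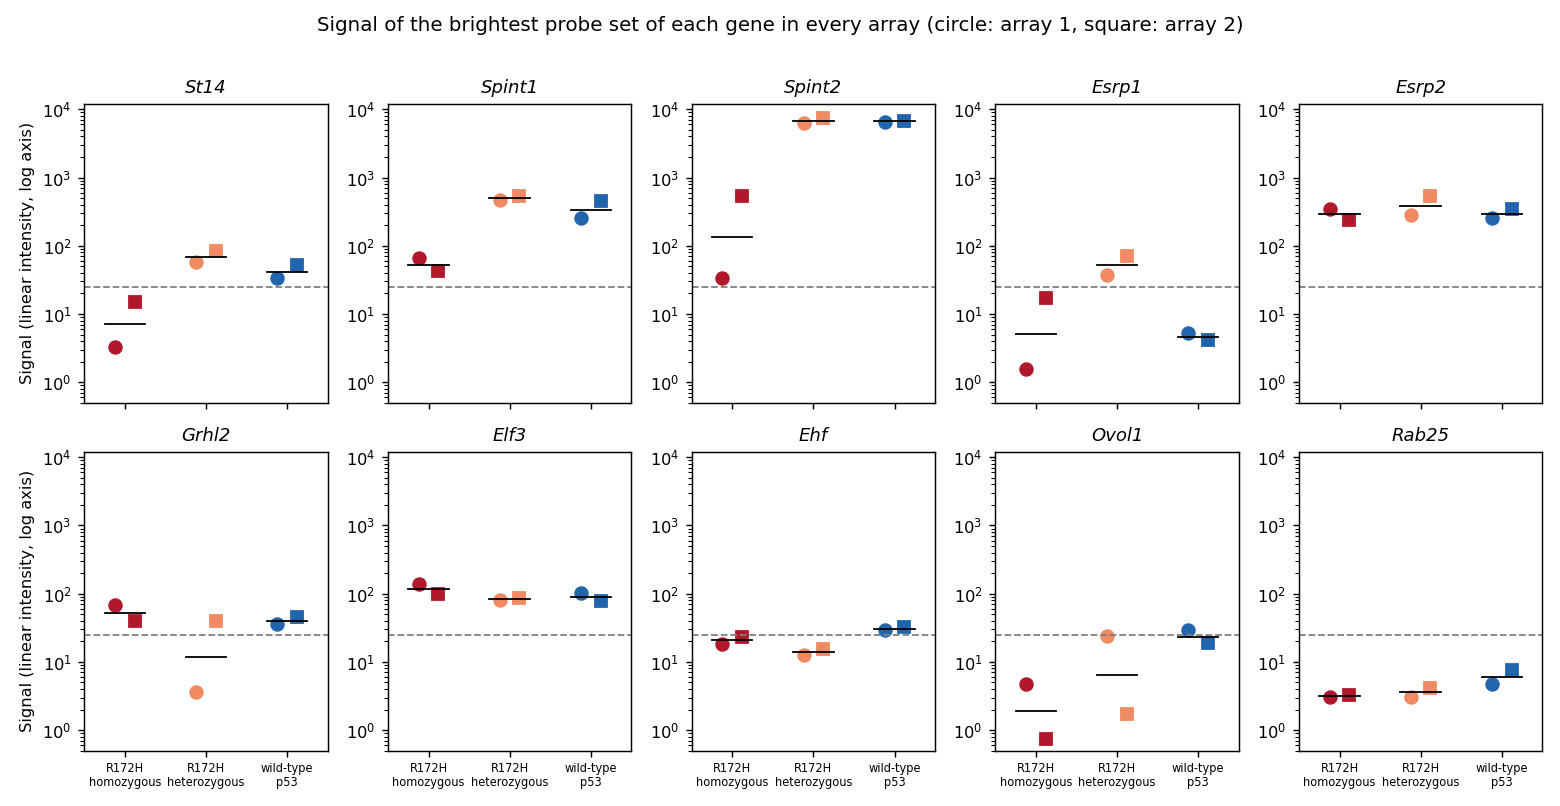
Signal of each gene's brightest probe set (linear intensity on a log axis) in the 2 arrays of homozygous, heterozygous and wild-type cells, with group geometric means as bars and the background of 24.5 as a dashed line. The homozygous points of St14, Spint1 and Spint2 lie under those of both other groups, whereas those of Esrp2 lie among them and Rab25 lies under background in every array.

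The inhibitor transcripts Spint1 and Spint2 had lower signals in both homozygous arrays than in the other 4 arrays. Spint1 had signals of 65.8 and 42.5 in homozygous arrays, 475 and 535 in heterozygous arrays, and 256 and 447 in wild-type arrays. The homozygous pair lay below all 4 other arrays. The share of all genes with such an order was not counted, here or for the other genes described. By limma, 3159 of 10916 tested genes had an unadjusted p under 0.05 for homozygous against wild-type cells, and 3345 against heterozygous cells. Spint1 fell by 2.68 ± 0.38 (SE) on the log2 scale against wild-type cells, with an adjusted p of 0.0419 by limma, and it fell by 3.25 ± 0.38 against heterozygous cells, with an adjusted p of 0.0283 (n = 2 arrays per group). In bulk samples, fewer cells of a type and less RNA per cell cannot be told apart, and this holds for every gene here.

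Spint2 showed the larger and the less even difference. Its signals were 33.5 and 535 in homozygous arrays, 6307 and 7388 in heterozygous arrays, and 6572 and 6828 in wild-type arrays. The geometric mean of the homozygous pair was 134, against 6826 in heterozygous and 6699 in wild-type cells. The log2 difference was -5.64 ± 1.25 against wild-type and -5.67 ± 1.25 against heterozygous cells, and neither passed (adjusted p = 0.0724 and 0.0691 by limma). The homozygous arrays lay far apart from each other while the other 4 lay close together. The homozygous pair lay below both other pairs, which overlapped each other. A second Spint2 probe set gave 5.6 and 359 in homozygous, 3940 and 4415 in heterozygous, and 4048 and 3458 in wild-type arrays, with the same order of the homozygous arrays. The difference from wild-type cells was -3.65 without homozygous array 1 and -7.64 without homozygous array 2. With 1 homozygous array left the spread of that group cannot be measured, so these are sizes only. With an offset of 16 added before log2, Spint2 passed limma's test (adjusted p = 0.0498 against wild-type and 0.0469 against heterozygous cells).

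St14, the protease itself, was dim in all groups. Its signals were 3.3 and 15.0 in homozygous arrays, 57.0 and 84.7 in heterozygous arrays, and 33.7 and 51.4 in wild-type arrays. Both homozygous arrays lay under background, and the other 4 were above it. The homozygous signal was at least 2.83-fold lower than the heterozygous and at least 1.70-fold lower than the wild-type signal, as bounds with the homozygous arrays raised to background. In a fit with no filter on dim genes its adjusted p was 0.159 against heterozygous and 0.223 against wild-type cells.

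The promoters of the inhibitor genes Spint1 and Spint2 are shown because both transcripts had their lowest signals in the homozygous arrays. RefSeq promoter windows (GRCm38.p6, from 250 bases before to 50 after the transcript start) matched 4 of the 10 genes: Spint1, Spint2, Elf3 and Rab25. The Spint1 window is chr2:119237110-119237409 on the plus strand and the Spint2 window chr7:29281928-29282227 on the minus strand. Capitals mark the ETS motif CCGGAAGT and the E-box CACCTG bound by ZEB and SNAI repressors, either strand.
Spint1: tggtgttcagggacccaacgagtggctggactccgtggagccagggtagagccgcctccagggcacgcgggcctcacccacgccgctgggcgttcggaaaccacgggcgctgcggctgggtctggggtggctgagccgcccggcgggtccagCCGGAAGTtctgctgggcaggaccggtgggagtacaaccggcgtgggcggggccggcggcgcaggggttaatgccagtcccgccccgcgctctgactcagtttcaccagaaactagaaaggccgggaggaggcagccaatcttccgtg
Spint2: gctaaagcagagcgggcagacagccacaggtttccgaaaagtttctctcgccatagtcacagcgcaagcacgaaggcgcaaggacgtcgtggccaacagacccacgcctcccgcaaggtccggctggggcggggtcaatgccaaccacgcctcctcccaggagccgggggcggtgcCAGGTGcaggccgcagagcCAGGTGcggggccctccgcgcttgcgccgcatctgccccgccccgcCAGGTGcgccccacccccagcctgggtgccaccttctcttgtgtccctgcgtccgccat
Spint1 had 1 copy of the ETS motif, which 3.89% of 32851 such windows hold, and no E-box. Spint2 had 3 copies of the E-box. At least 1 copy occurs in 20.2% of all windows and 3 or more in 0.365%. Elf3 held 1 E-box and Rab25 held 2. The grainyhead motif AACCGGTT, its own reverse complement, was in none of the 4 windows and in 0.146% of all windows. Both inhibitor promoters held more CpG than the median window, with 28 in Spint1 and 26 in Spint2 against a median of 7. At least as many occur in 14.2% of all windows for the Spint1 count and 16.9% for the Spint2 count. These matches describe the letters and say nothing of binding.

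Read against all genes, 1 of the 4 tested genes fell and 0 rose in homozygous against wild-type cells, where limma called 2.25% of 10916 tested genes lower and 0.412% higher. Against heterozygous cells, 1 of 4 likewise fell and 0 rose, where 3.22% of all genes were called lower and 0.87% higher. Both comparisons share the homozygous arrays, and the called gene was Spint1 in each. The median log2 fold change of the 4 genes was -1.35 against wild-type cells, beside -0.09 for all tested genes, and -1.83 against heterozygous cells, beside -0.08. Against wild-type cells the values were -5.64 for Spint2, -2.68 for Spint1, -0.03 for Esrp2 and 0.39 for Elf3, so the median describes no shared shift. The Spint1 calls stood close to the threshold. Against wild-type cells the call ended without either wild-type array (adjusted p = 0.188 without array 1 and 0.171 without array 2), without either heterozygous array (0.132), with the replicate block (0.0914) or with quantile-normalised arrays (0.0807). Against heterozygous cells it ended in the same settings, with adjusted p of 0.0752 without either wild-type array, 0.171 and 0.241 without heterozygous arrays 1 and 2, 0.0685 with the block and 0.0557 after quantile normalisation.

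**Figure D2:**
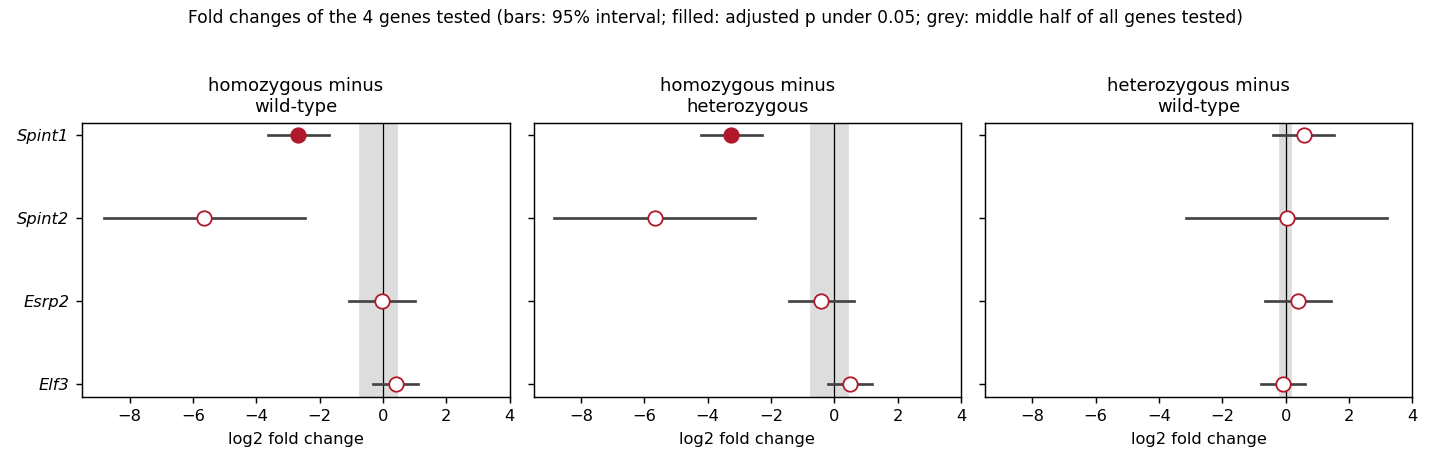
Log2 fold changes of Spint1, Spint2, Esrp2 and Elf3 with 95% intervals from limma in the 3 comparisons, filled where the adjusted p was under 0.05, with the interquartile range of all tested genes in grey. Spint1 is filled in both comparisons of homozygous cells, and the Spint2 intervals there are wide but lie below 0.

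The splicing regulators differed from each other in level and pattern. Esrp2 had signals of 347 and 242 in homozygous arrays, 281 and 530 in heterozygous arrays, and 254 and 345 in wild-type arrays. All 3 groups overlapped. The log2 difference of homozygous minus wild-type cells was -0.03 with a 95% interval from -1.06 to 1.00, and that of homozygous minus heterozygous cells was -0.41 with an interval from -1.44 to 0.62. Neither passed limma's test (adjusted p = 0.967 and 0.527). The direction against wild-type cells was reversed with quantile-normalised arrays, where the difference was 0.27. The second probe set of Esrp2 gave 117 and 69.2 in homozygous, 59.7 and 99.3 in heterozygous, and 67.8 and 77.7 in wild-type arrays, which overlapped as well.

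Esrp1, with a single probe set, was above background in heterozygous arrays alone. It had signals of 1.5 and 17.1 in homozygous arrays, 37.5 and 70.4 in heterozygous arrays, and 5.2 and 4.2 in wild-type arrays. Heterozygous signals were at least 2.10-fold higher than those of wild-type cells, and the homozygous signals were lower than the heterozygous by the same bound, with the pairs under background raised to it. With no filter the adjusted p was 1.00 for heterozygous against wild-type cells and 0.241 for homozygous against heterozygous cells. These arrays read the total transcript, so the isoforms that Esrp1 and Esrp2 control were not measured.

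Among the transcription factors, Elf3 had signals of 138 and 100 in homozygous arrays, 80.3 and 87.2 in heterozygous arrays, and 101 and 78.7 in wild-type arrays. The homozygous pair lay above the heterozygous pair and overlapped the wild-type pair. Its log2 difference was 0.39 ± 0.28 against wild-type and 0.49 ± 0.28 against heterozygous cells, and neither passed (adjusted p = 0.381 and 0.283 by limma). The size depended on the scaling. With quantile-normalised arrays it was 1.01 and 1.05 (adjusted p = 0.112 and 0.0971), and with median-centred arrays 0.70 and 0.71, against wild-type and heterozygous cells in that order. Against wild-type cells it was 0.16 without homozygous array 1, 0.63 without homozygous array 2 and 0.21 without wild-type array 2.

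Grhl2 had 4 probe sets that disagreed. The brightest gave 68.1 and 40.3 in homozygous arrays, 3.6 and 39.4 in heterozygous arrays, and 35.4 and 45.0 in wild-type arrays. Only heterozygous array 1 was under background there. Homozygous minus wild-type log2 differences were 0.39 for this probe set and -0.65, -0.94 and -1.83 for the others, all from signals of at most 68.1. No direction can be given for Grhl2 from these values.

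Ehf and Ovol1 were at or near background throughout. Ehf had signals of 18.5 and 23.3 in homozygous arrays, 12.5 and 15.3 in heterozygous arrays, and 29.1 and 31.9 in wild-type arrays, of which the wild-type pair alone exceeded background. The other 3 Ehf probe sets ranged from 0.76 to 35.6 with no common order of the groups. Ovol1 had signals of 4.8 and 0.73 in homozygous arrays, 24.0 and 1.7 in heterozygous arrays, and 29.1 and 19.0 in wild-type arrays, so that wild-type array 1 alone lay above background. Its second probe set lay between 2.6 and 24.7.

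Rab25 was under background in every array. Its signals were 3.0 and 3.2 in homozygous arrays, 3.1 and 4.1 in heterozygous arrays, and 4.7 and 7.6 in wild-type arrays, and no fold is given.

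**Figure D3:**
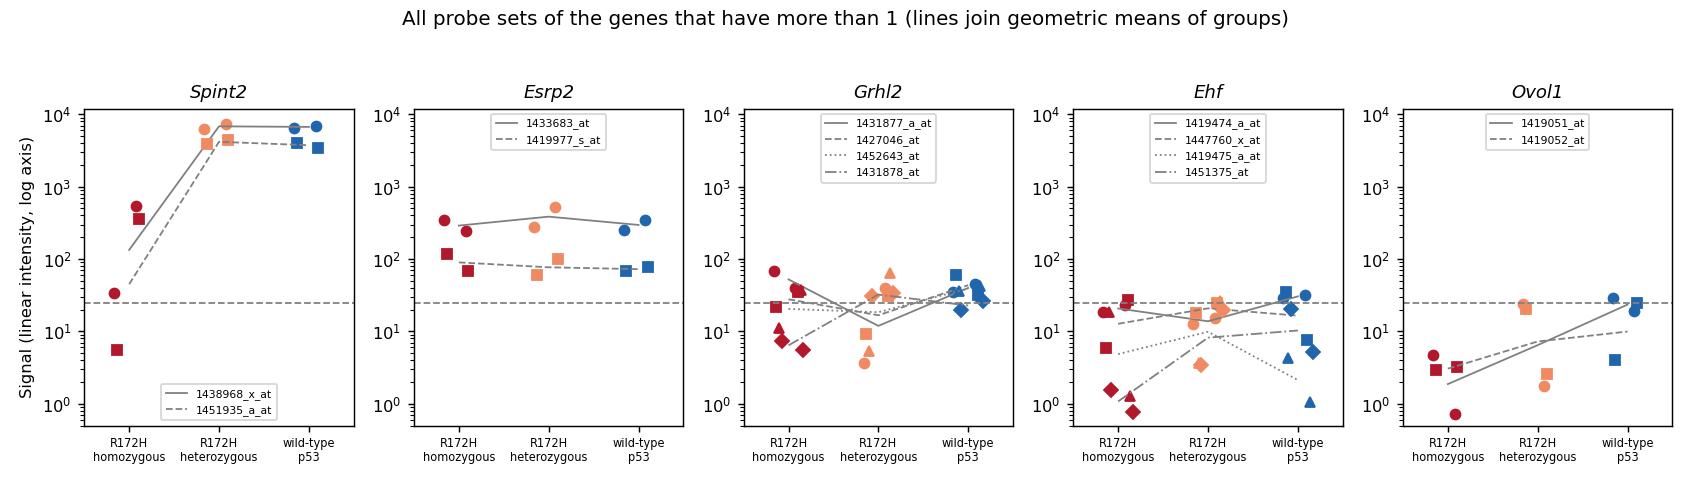
Signals (linear intensity on a log axis) of every probe set of the 5 genes with more than 1, by group, with lines through group geometric means and background as a dashed line. Both Spint2 probe sets have their lowest signals in the homozygous arrays and both Esrp2 probe sets run level across groups. Those of Grhl2 and Ehf scatter around background without a common order. Those of Ovol1 share an order of group means, with 5 arrays under background in each.

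Between heterozygous and wild-type cells no tested gene passed. Both heterozygous Spint1 signals exceeded both wild-type ones, and the Spint2 and Esrp2 pairs overlapped. By the fit, Spint1 was higher by 0.57 on the log2 scale in heterozygous cells (95% interval -0.39 to 1.54), Spint2 by 0.03 (-3.14 to 3.20) and Esrp2 by 0.38 (-0.65 to 1.41), whereas the Elf3 difference was -0.09 (-0.79 to 0.60). Of the 4, 0 passed limma's test and 0 had an unadjusted p under 0.05. Over all 10916 genes limma called 0% higher and 0% lower, with 71 genes at an unadjusted p under 0.05. The fit pools the spread of a gene over all 3 groups, so the more variable homozygous pair also enters these intervals and calls. The Spint2 interval is wide although its heterozygous and wild-type signals lay between 6307 and 7388. The 0 calls therefore do not show that the 2 groups are alike.

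Genes around matriptase were read from related lists that were chosen with earlier results of these data known. Over all 10916 tested genes limma called 2.25% lower and 0.412% higher against wild-type cells. Against heterozygous cells the shares were 3.22% lower and 0.87% higher. Of 22 proteases, inhibitors and substrates 20 were measured and 7 tested, 1 fell and 0 rose in both comparisons of homozygous cells, and the median was -0.79 against wild-type and -0.67 against heterozygous cells. The called gene was Epcam, an adhesion molecule that matriptase cleaves, with signals of 27.6 and 22.2 in homozygous arrays, 1033 and 555 in heterozygous arrays, and 857 and 1242 in wild-type arrays. It fell by 5.38 ± 0.39 against wild-type cells (adjusted p = 0.0136 by limma), and homozygous array 2 was under background. Prss8, prostasin, was chosen after its values were seen and lay below the filter, with 4.8 and 6.5 in homozygous arrays, 39.8 and 125 in heterozygous arrays, and 37.5 and 53.3 in wild-type arrays. Its homozygous signals were under background, at least 1.82-fold lower than in wild-type and 2.88-fold lower than in heterozygous cells. Met, the receptor of hepatocyte growth factor, had 6264 and 3121 in homozygous, 2271 and 1581 in heterozygous, and 1795 and 2011 in wild-type arrays, and did not pass (adjusted p = 0.133 against wild-type cells).

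Of 16 tested splicing regulators and ESRP targets, 0 passed limma's test against wild-type cells (3 at an unadjusted p under 0.05). Against heterozygous cells 1 rose, where 0.87% of all tested genes were called higher. The median of the 16 was 0.52 against wild-type and 0.64 against heterozygous cells. The called gene was Ptbp2, a polypyrimidine tract binding protein, with signals of 2431 and 2830 in homozygous arrays, 1026 and 935 in heterozygous arrays, and 927 and 1206 in wild-type arrays; it rose by 1.42 ± 0.25 against heterozygous cells, with an adjusted p of 0.0489. The total transcripts of the ESRP targets Cd44 and Fgfr2 were chosen after their values were seen. Cd44, the hyaluronan receptor, had 11587 and 5011 in homozygous, 2620 and 2498 in heterozygous, and 1614 and 1933 in wild-type arrays. Fgfr2, a fibroblast growth factor receptor, had 87.9 and 621 in homozygous, 897 and 1651 in heterozygous, and 963 and 1105 in wild-type arrays. Neither passed (adjusted p = 0.0664 and 0.201 against wild-type cells).

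Epithelial genes downstream of grainyhead, ELF and OVOL factors included 4 that fell and 0 that rose among 12 tested, in each comparison of homozygous cells. Their median was -2.50 against wild-type and -2.43 against heterozygous cells. Beside Epcam these were Lsr, Marveld2 and Marveld3, which encode proteins of tight junctions, those of Lsr and Marveld2 at tricellular contacts. Lsr had signals of 443 and 756 in homozygous arrays, 4077 and 3657 in heterozygous arrays, and 4913 and 4786 in wild-type arrays, and fell by 3.07 ± 0.32 against wild-type cells (adjusted p = 0.0226 by limma). Marveld2 fell by 1.84 ± 0.24 against wild-type cells, and Marveld3, under background in the homozygous pair, by 6.53-fold at the least (adjusted p = 0.0347 and 0.0145 by limma). The keratins of simple epithelia named here did not pass, and their estimates ran both ways. Krt18, the brightest of the list, had 25436 and 5623 in homozygous, 11707 and 6729 in heterozygous, and 6247 and 12233 in wild-type arrays, a log2 difference of 0.45 against wild-type cells. Krt8 and Krt19 had differences of -2.26 and -2.71 against wild-type cells. Krt7 had signals of 60.5 and 1729 in homozygous, 16318 and 11838 in heterozygous, and 17640 and 17717 in wild-type arrays. Mal2, an apical transport protein chosen after its values were seen, ran the other way, with 273 and 297 in homozygous arrays, 16.2 and 27.4 in heterozygous arrays, and 19.8 and 0.51 in wild-type arrays, and was not tested.

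Among 4 tested epithelial transcription factors outside the 10 genes 0 were called in any comparison by limma, with 3 at an unadjusted p under 0.05 in each comparison of homozygous cells and a median of -1.27 against wild-type and -1.18 against heterozygous cells. Tfcp2l1, the brightest, had 174 and 374 in homozygous, 1375 and 941 in heterozygous, and 1494 and 1228 in wild-type arrays (adjusted p = 0.0573 by limma against wild-type cells). Klf4 had 504 and 579 in homozygous, 756 and 512 in heterozygous, and 337 and 1034 in wild-type arrays. Grhl1, the paralog of Grhl2, had 17.6 and 72.8 in homozygous arrays, 128 and 365 in heterozygous arrays, and 348 and 216 in wild-type arrays (adjusted p = 0.106 against wild-type cells). Klf5, a zinc finger factor, had 393 and 352 in homozygous, 215 and 182 in heterozygous, and 166 and 174 in wild-type arrays (adjusted p = 0.0645 against wild-type cells). Of 8 tested repressors of epithelial genes 0 were called by limma, with 3 and 2 at an unadjusted p under 0.05 and medians of 0.47 against wild-type and 0.18 against heterozygous cells. Snai2 had 2284 and 2460 in homozygous, 1293 and 922 in heterozygous, and 910 and 1208 in wild-type arrays. Zeb1 had 728 and 1803 in homozygous, 1175 and 1633 in heterozygous, and 809 and 1263 in wild-type arrays. Both homozygous Snai2 signals exceeded all others (adjusted p = 0.0838 against wild-type cells), while those of Zeb1 overlapped both groups.

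Of 15 tested genes of the Rab11 family and of apical recycling 0 were called by limma, with 5 at an unadjusted p under 0.05 in each comparison of homozygous cells and medians of -0.29 against wild-type and -0.25 against heterozygous cells. Rab11a, the ubiquitous relative of Rab25, had 3791 and 5953 in homozygous arrays, 11379 and 11850 in heterozygous arrays, and 9324 and 11863 in wild-type arrays (adjusted p = 0.0969 against wild-type cells). Myo5b, a motor that works with Rab11 proteins and was chosen after its values were seen, had 23.8 and 113 in homozygous, 1338 and 947 in heterozygous, and 2026 and 1047 in wild-type arrays (adjusted p = 0.0502 against wild-type cells).

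Heterozygous against wild-type cells gave 0 calls by limma in each of these 6 lists, with 0 genes at an unadjusted p under 0.05 and medians between -0.14 and 0.13.

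**Figure D4:**
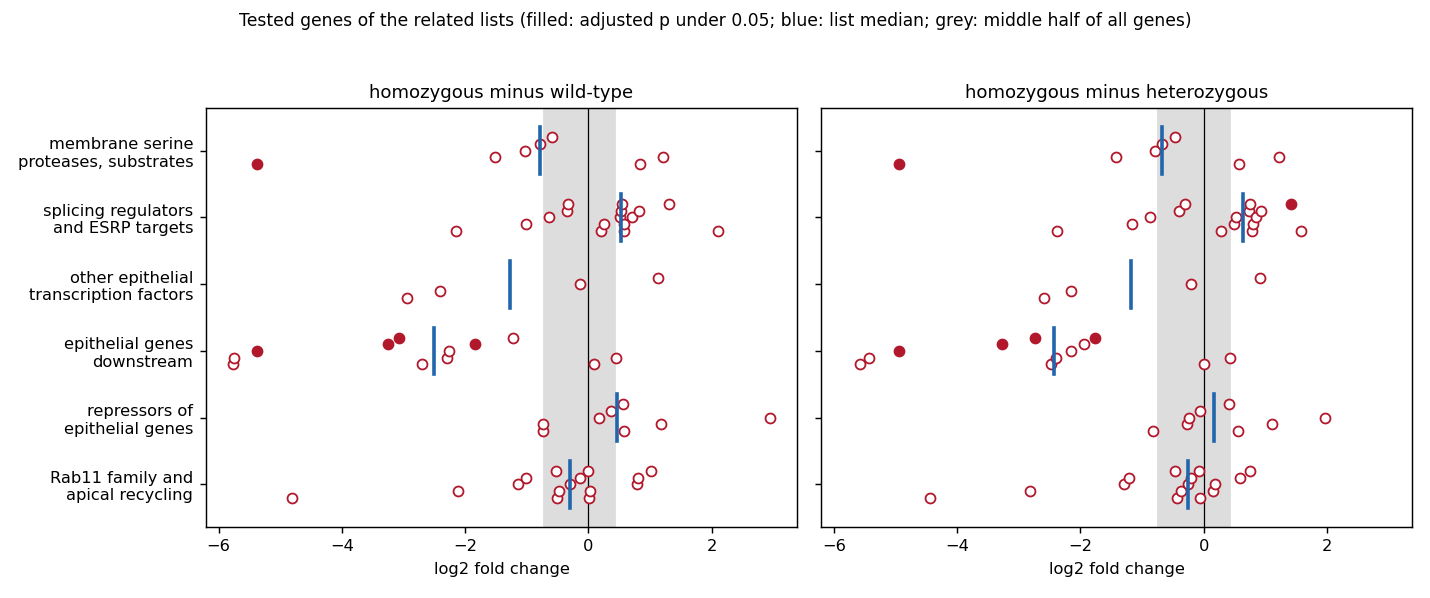
Log2 fold changes of the tested genes in 6 related lists, for homozygous minus wild-type and homozygous minus heterozygous cells, filled where the adjusted p was under 0.05, with list medians in blue and the interquartile range of all tested genes in grey. The list of downstream epithelial genes holds 4 filled points in each panel, all below 0.

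Summed markers of several cell types were lowest in the homozygous arrays, as Spint1 and Spint2 were. For the calls below, limma called 2.25% of all 10916 tested genes lower against wild-type and 3.22% lower against heterozygous cells. The summed signal of 16 surface epithelium and mesothelium markers was 61482 and 81061 in homozygous arrays, 209469 and 171695 in heterozygous arrays, and 192593 and 231094 in wild-type arrays, with Upk1b and Lgals7 called lower in each comparison of homozygous cells. The sum of 11 macrophage markers was 486 and 717 in homozygous arrays, 5157 and 5433 in heterozygous arrays, and 2824 and 2503 in wild-type arrays, with 3 of 8 tested (Lyz2, Mpeg1 and Ctss) called lower against wild-type cells and 4, with Fcer1g added, against heterozygous cells. The sum of 10 endothelial markers was 2051 and 2909 in homozygous, 9215 and 10479 in heterozygous, and 10582 and 11046 in wild-type arrays. Of 4 tested, 3 (Kdr, Esam and Icam2) were called lower in each comparison of homozygous cells, and Esam was the brightest of the list. Eng, the other gene tested, was not called, with 127 and 164 in homozygous, 127 and 103 in heterozygous, and 116 and 136 in wild-type arrays. Pecam1, Cdh5, Tek and Emcn were not tested and had no signal over 55.8 in any array. Tie1 and Vwf lay under background in every array. The sum of 10 granulosa and theca markers was 792 and 4099 in homozygous, 9823 and 13176 in heterozygous, and 16672 and 12364 in wild-type arrays. Against wild-type cells 0 of 6 were called by limma, with 4 at an unadjusted p under 0.05. Amhr2 and Star were the brightest of the list. Inhba had a log2 difference of 0.68 against wild-type cells and was not called. Fshr, Amh and Cyp11a1 were not tested and had no signal over 58.1 in any array. Cyp17a1 lay under background in every array. Fst, follistatin, was called lower against heterozygous cells (adjusted p = 0.0444 by limma). The sum of 10 stromal markers was 52872 and 119085 in homozygous arrays, which lay on both sides of the 75637 and 86923 of heterozygous and the 88324 and 80004 of wild-type arrays. Within this list Pdgfra, a receptor for platelet-derived growth factor, was called lower in each comparison of homozygous cells, with signals of 130 and 103 in homozygous, 801 and 1083 in heterozygous, and 615 and 1056 in wild-type arrays. Summed signals of 8 Mullerian markers were 1267 and 1729 in homozygous, 3742 and 4608 in heterozygous, and 4077 and 3706 in wild-type arrays, with Foxj1 under background in every array. Those of 6 smooth muscle markers were 11713 and 47187 in homozygous, 33708 and 31358 in heterozygous, and 21181 and 34136 in wild-type arrays. The 5 lymphocyte markers summed to 262 and 236 in homozygous, 367 and 449 in heterozygous, and 391 and 322 in wild-type arrays, with Cd3g and Cd79a under background in every array. The 5 oocyte markers summed to 152 and 312 in homozygous, 170 and 146 in heterozygous, and 166 and 169 in wild-type arrays. The part of these cell types, or of RNA quality, in the levels of Spint1, Spint2 and St14 was not tested.

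**Figure D5:**
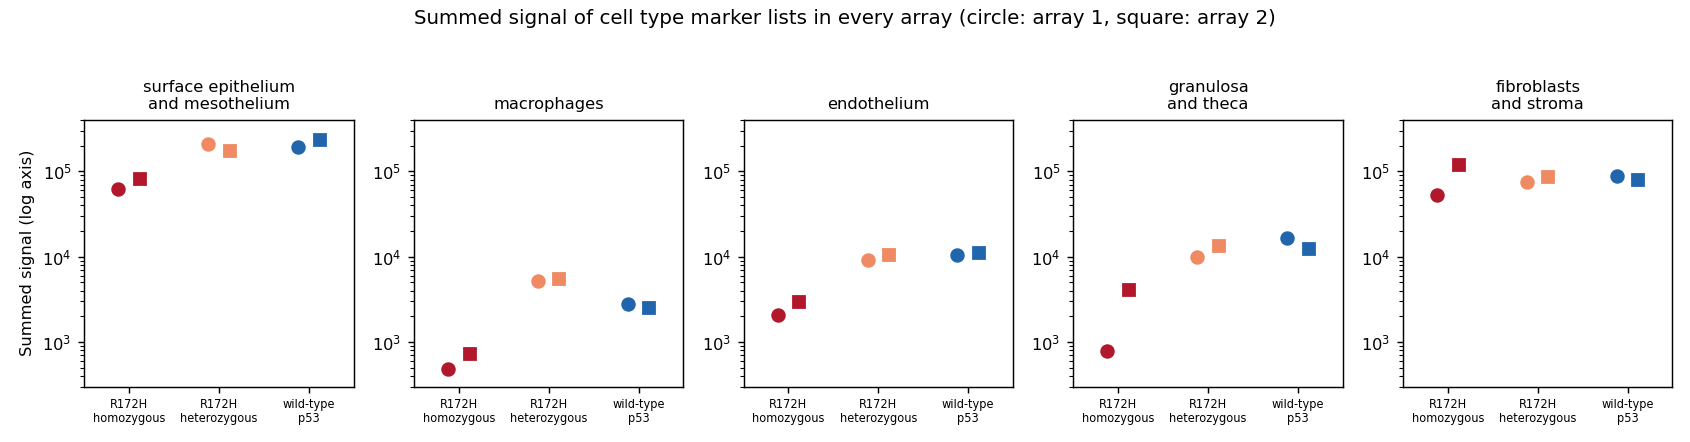
Summed signal (log axis) of 5 marker lists in the 2 arrays of each group. Both homozygous arrays lie below the other 4 for surface epithelium, macrophage, endothelial and granulosa markers, and on both sides of them for stromal markers.

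The 5 tested genes whose log2 profile over the 6 arrays was most like the mean centred profile of Spint1, Spint2, Esrp2 and Elf3 were Ncoa4, Idnk, Lrrn4cl, Mapre2 and Micos10, with Pearson's r between 0.997 and 1.00. Ncoa4 had signals of 3016 and 4315 in homozygous arrays, 12123 and 15317 in heterozygous arrays, and 10622 and 12683 in wild-type arrays. The 4 genes did not share a profile: over the 6 arrays Elf3 had an r of -0.89 with Spint2 and -0.75 with Spint1, and Esrp2 had 0.11 with Spint2. Spint2 spans by far the widest log2 range of the 4 and so weighs most in the mean. The 5 genes most like Spint2 alone were others, namely Cryl1, Ndufa3, Bend5, Camsap3 and Igfbp5. These values are a description over 6 arrays that fall into 3 groups and share one normalisation.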

How the data were processed

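Expression was measured on 6 one-colour Affymetrix mouse arrays with 45101 probe sets. The deposited values are linear probe set intensities. RMA is named per the submitters' processing notes, without a version, yet array quantiles differ and each array's trimmed mean (middle 96%) is 500, a form RMA does not give. Log2 was taken with no offset and no normalisation was added. Probe sets naming 1 gene were used (34958, with 932 naming several and 9211 none), with symbols updated by Entrez identifier for 34754. Each of 18194 genes was represented by its brightest probe set, and the 10916 with a mean at or above the 40th percentile entered a limma fit (limma 3.58.1, R 4.3.3) of 3 group means over all 6 arrays, with Benjamini-Hochberg adjustment and calls at 0.05. The fit had 3 residual and 2.26 prior degrees of freedom. Its p-values measure the spread between arrays, which may be technical, and precision is limited by having so few arrays. The procedure was tested on simulated data. The 10 genes, the lists and the alternatives were chosen with earlier results of these data known. The text names all 10 genes, called genes of a list, up to 4 others of highest signal and the 5 most alike in profile. It also names the 5 most like Spint2 alone. Further ones are marked or, in the marker lists, given as untested, not called or under background. For homozygous cells 1 label field gives another p53 family gene, and grouping went by the titles. Replicate numbers are not known to pair samples. Figures used Python 3.11.15 and matplotlib 3.10.9.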

Additional observations from a re-analysis of the deposited data

How the results depend on the processing

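The number of genes called by limma, 291 for homozygous against wild-type and 446 against heterozygous cells, was 0 and 17 with no filter on dim genes, 190 and 281 with probe sets averaged per gene, 666 and 798 with signals raised to background, 656 and 762 with an offset of 16 before log2, 0 and 9 with only the groups compared, 0 and 19 with the replicate block, and 0 and 0 when the close pair, array 2 of wild-type and array 1 of heterozygous cells, was dropped. With a spread per group it was 293 against heterozygous cells. Leaving out single arrays gave 0 to 2663 and 0 to 2841. Of the genes described, the 1 call against wild-type cells became 0 with quantile normalisation, median-centred arrays, no filter, the filter at the 60th percentile (which keeps Spint2 alone), only the groups compared, a spread per group, the replicate block and without both close arrays, became 2 with the offset, and ranged from 0 to 2 with single arrays left out. Against heterozygous cells the same held, except that median-centred arrays and a spread per group kept 1 call. The median of the tested genes against wild-type cells, -1.35, was -0.93 with quantile normalisation, -1.05 with median-centred arrays, -0.74 with no filter, -5.64 with the stricter filter, -1.04 without both close arrays and between -1.67 and -1.04 with single arrays left out. Against heterozygous cells it was -1.45, -1.10 and -5.67 with quantile normalisation, no filter and the stricter filter. Heterozygous minus wild-type cells had 0 calls in every setting run, and a median of 0.61 without both close arrays. The Esrp2 difference from wild-type cells, -0.03, was 0.27 with quantile normalisation, 0.28 with median-centred arrays, 0.14 with averaged probe sets and 0.19 without both close arrays. With single arrays left out it ran from -0.29 to 0.23, that of homozygous minus heterozygous cells from -0.87 to 0.049, and heterozygous minus wild-type cells from -0.079 to 0.84 for Esrp2, -0.087 to 0.14 for Spint2 and -0.28 to 0.088 for Elf3. The median of all tested genes against wild-type cells was -0.09 as deposited and 0.22 after median-centring. Correlations of replicate differences between groups were 0.16, -0.10 and -0.30. With a single replicate difference in each group, these values cannot decide whether the replicate numbers pair the arrays. The cause of these changes was not tested. Signals near background limit St14, Esrp1, Grhl2, Ehf, Ovol1 and Rab25.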
